A study of Mus musculus with 2 samples.

Results

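Of the 6700 autosomal peaks of 5-hydroxymethylcytosine (5hmC) called in mouse embryonic fibroblasts at passage 5, 2012 shared no base with any of the 60086 autosomal peaks called at passage 0. These passage-5-only peaks are described here, and the other 4688 passage 5 peaks are called shared. The passage-5-only peaks were chosen by the absence of a passage 0 peak, so their share of the list, 30.0% (95% exact interval 28.9% to 31.1%), describes the choice and is not a test. The 2 lists together held 66883 peaks on all chromosomes. Both libraries came from C57BL/6 fibroblasts derived from embryos at day 13.5 after conception and grown in serum-containing medium. There was 1 library from cells at passage 0 and 1 from cells at passage 5. No treatment or genetic change is given for either. The labels do not say whether both passages came from the same embryos, or how many embryos were pooled. The mark was glucosylated and biotinylated in sonicated DNA with a commercial kit, and the fragments that were pulled down were sequenced.

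5hmC is made from 5-methylcytosine by the TET dioxygenases, and it can be oxidised further or lost when DNA is copied without renewal of the mark. In differentiated cells it is found mostly in gene bodies and at enhancers, and its level is known to fall when primary cells are put into culture. The series is titled for the regulation of Tet1, which encodes a TET enzyme, and its design sets the mark at an early passage beside that at a later passage. A peak is a stretch with more captured fragments than the background, not a single modified base. A site without a peak is a site at which none was called, which need not lack 5hmC.

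The reads behind each peak could be recovered from the deposited score, although the lists name neither reads nor depth. In each list the score equalled −10 log10 of the probability that a Poisson variable exceeds a whole number of reads. The mean of that variable was 1 background rate multiplied by the peak width, with widths under 400 bases counted as 400. This held to within 0.01 for 6721 of 6726 peaks at passage 5 and for 60147 of 60157 at passage 0, and the exceptions all had scores of 3100 or more. A single rate per list was enough, so no score called for a background that changed from place to place. The passage 5 list had a fitted rate of 1.05 reads per kb and the passage 0 list 13.7, which is 13.0 times as high. If the rate follows the size of the library, the passage 0 library was deeper by that ratio, but no file states what the rate was computed from. The tail may also count the read number itself, in which case every peak held 1 read more than given here.

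The passage-5-only peaks rested on few reads. Their read numbers ran from 9 to 29 with a median of 10, against a median of 11 and a lowest value of 8 among the shared peaks. A count of 10 reads has an exact Poisson interval of 4.80 to 18.4, which does not allow for the choice of sites with high counts. At the median width of these peaks the background mean was 0.561 reads, so 10 reads were a large excess over background but a small number. Peaks with at most 10 reads were 55.4% of the passage-5-only set (53.2% to 57.6%) and 41.0% of the shared set (39.5% to 42.4%). Enrichment, the read number divided by the background mean, was nearly the same in both sets, with a median of 18.67 (18.44 to 18.996) in the passage-5-only peaks and 18.99 (18.8 to 19.1) in the shared peaks. These medians are over peaks of all widths, and narrower peaks need a higher enrichment to reach the same score.

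**Figure D1:**
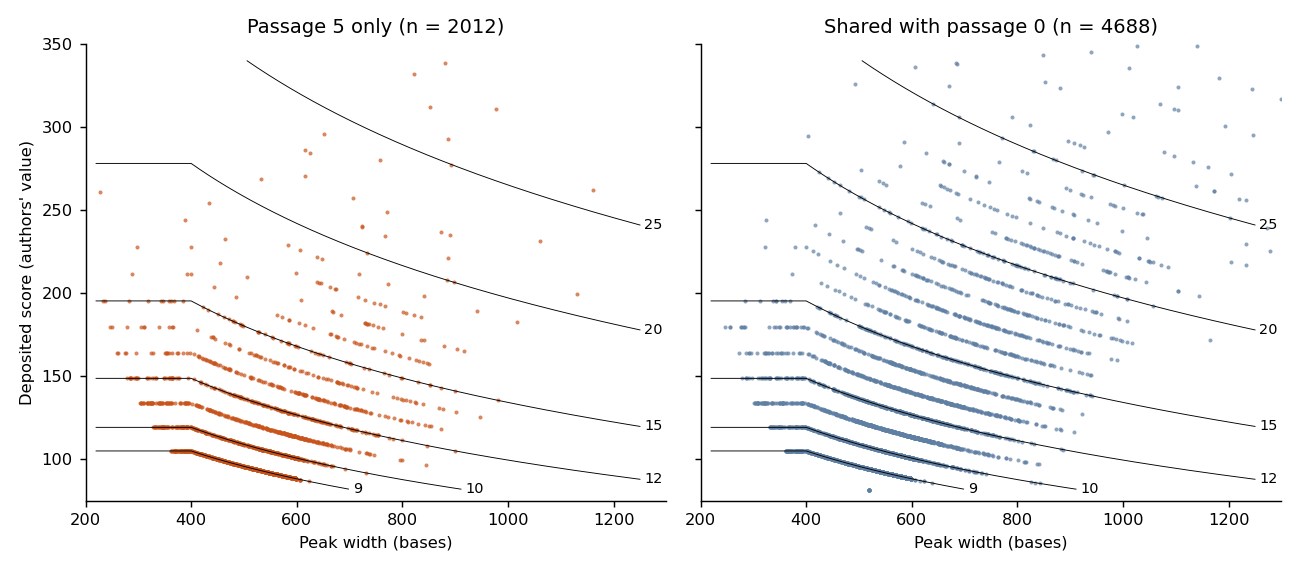
Deposited score (vertical axis) against peak width in bases (horizontal axis) for the 2012 passage-5-only peaks (left) and the 4688 shared passage 5 peaks (right), 1 point per peak. The lines are the fitted scores for 9, 10, 12, 15, 20 and 25 reads; points fall on such lines in both sets, and the passage-5-only peaks crowd the lowest ones. Scores above 350 and widths above 1300 bases are not drawn, which leaves out 0 passage-5-only peaks and 38 shared peaks.

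Scores and widths were lower in the passage-5-only peaks, and the sets overlapped widely. The deposited score ran from 86.7 to 338 with a median of 111 (109 to 113) in the passage-5-only peaks. In the shared peaks the median was 119 (118 to 120) and the highest score was 3100. Scores of at least 200 were found in 50 passage-5-only peaks, 2.49% of them, and in 9.09% of the shared peaks. The strongest part of the passage 5 list was thus made up mostly of sites that were also peaks at passage 0. Widths had a median of 536 bases with quartiles of 454 and 592 in the passage-5-only set, against 575 with quartiles of 503 and 658 in the shared set. Narrow peaks of at most 400 bases were 13.4% of the passage-5-only peaks and 6.74% of the shared peaks, and peaks of at least 800 bases were 2.98% and 9.11%. A wider peak meets peaks of another list more often, so the difference in width is partly set by the rule.

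The share of passage 5 peaks without a passage 0 peak fell as the number of reads rose. It was 38.7% (36.5% to 41.0%) among peaks with 9 reads, 31.0% (28.1% to 34.1%) with 11 reads and 22.01% (17.2% to 27.5%) with 15 reads. Among peaks with 20 or more reads it was 7.69% (5.09% to 11.1%), which is 26 of 338 peaks. The share was also lower among wider peaks: it was 40.9% in the narrowest 25% of the list, up to 488 bases, and 18.2% in the widest 25%, over 634 bases. The overlap rule itself favours narrow peaks. Both measures were therefore read together. Within the narrowest 25% of peaks the share was 43.6% (37.5% to 49.9%) for the lowest 25% of scores and 38.1% (33.0% to 43.3%) for the highest 25%. Within the next 25% by width, up to 563 bases, it was 39.9% (36.3% to 43.7%) and 20.7% (15.4% to 26.7%). It was 31.1% (27.5% to 34.8%) and 18.4% (13.3% to 24.3%) in the 25% after that, and 18.6% (11.02% to 28.4%) and 13.0% (10.8% to 15.4%) in the widest 25%. In each of the 4 width classes the share was thus lower at the highest scores than at the lowest, with intervals that overlapped in the narrowest and the widest class. In these classes the share did not fall steadily with score. For the scores between the lowest and the highest 25%, it was 39.8% and then 42.9% in the narrowest class. In the widest class it was 27.8% and then 23.9%, both above the share at the lowest scores.

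**Figure D2:**
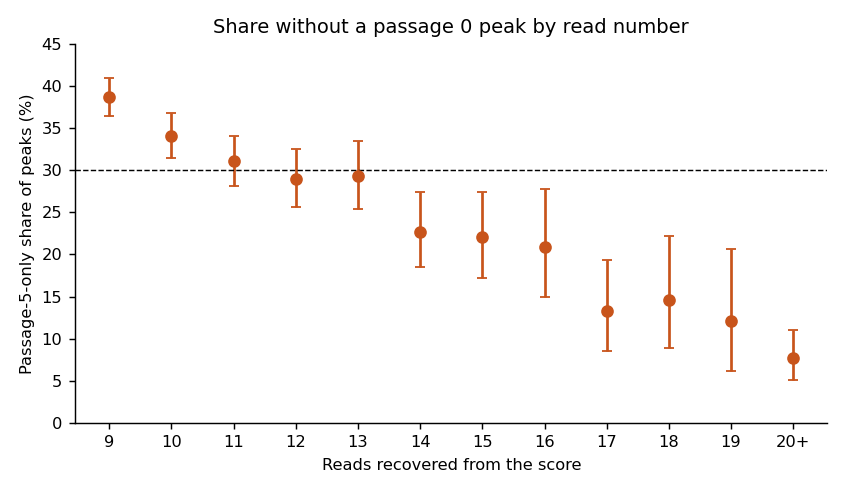
Share of autosomal passage 5 peaks without a passage 0 peak (vertical axis, percent) by the number of reads recovered from the score (horizontal axis); bars are 95% exact binomial intervals and the dashed line is the share in the whole list. The share goes from 38.7% at 9 reads to 7.69% at 20 or more, and the 9 shared peaks with 8 reads are not drawn.

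The recovered reads allow the passage 0 list to be read for what it could have called at these sites. The lowest score in that list was 80, and the fewest reads in any of its peaks were 24. For peaks as wide as the passage-5-only peaks, a score of 80 at passage 0 needed a median of 27 reads, or 3.68 times the background (2.71 to 4.21 over the set). The passage-5-only peaks were 12.4 to 45.3 times above background at passage 5. Their enrichment at passage 0, over the same bases, would therefore have stayed under the limit if it was less than 0.196 times that at passage 5 in the median peak, and less than 0.0929 to 0.247 times over the set. This assumes that a passage 0 peak with the same borders would have been called on its score alone. The lowest of these limits, 23 reads, was below the fewest reads in any passage 0 peak.

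Such low ratios were also common at sites called in both lists. In the 4688 shared peaks, the enrichment of the overlapping passage 0 peak was a median of 0.230 times that at passage 5 (quartiles 0.191 and 0.277), and it lay between 0.0738 and 0.504 times throughout. Where several passage 0 peaks overlapped, the highest enrichment among them was used. The ratio was below the passage-5-only median limit of 0.196 in 28.6% of the shared peaks (27.3% to 29.9%). The limits of the passage-5-only peaks fell inside the range of ratios that shared sites had. That was largely fixed in advance, because shared sites had to reach the same passage 0 limit and had nearly the same enrichment at passage 5. The overlap therefore does not show whether passage-5-only sites were missed at passage 0. The lowest enrichment that was called was 11.3 at passage 5 and 2.81 at passage 0, so passage 5 peaks were selected for higher enrichment than passage 0 peaks, and a ratio below 1 at shared sites does not measure a change. The overlapping passage 0 peaks also did not have the same borders as the passage 5 peaks. Whether the passage-5-only sites differed in 5hmC between passages was not tested, because passage 0 reads at these sites were not analysed here.

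**Figure D3:**
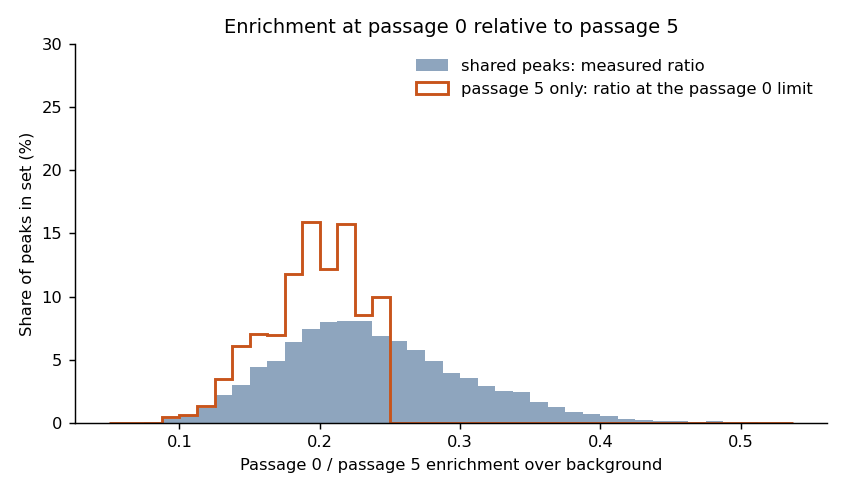
Enrichment over background at passage 0 divided by that at passage 5 (horizontal axis) against the share of peaks in each set (vertical axis, percent). Filled bars are the measured ratios of the 4688 shared peaks, with a median of 0.230; the outline gives, for the 2012 passage-5-only peaks, the ratio that would just have reached a score of 80 at passage 0, with a median of 0.196.

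Passage-5-only peaks lay in regions that were rich in passage 0 peaks, though less so than shared peaks. Within 100 kb of their midpoints there were 0 to 51 passage 0 peaks, with a median of 8 and quartiles of 3 and 14. Shared peaks had a median of 12 (quartiles 7 and 20), not counting the passage 0 peaks they overlapped. Passage 0 peaks themselves had a median of 12 others within 100 kb (quartiles 6 and 20). Shared peaks lie at passage 0 peaks by the rule, so their higher number is partly set by it. Positions set every 10 kb along the autosomes had a median of 2 (quartiles 0 and 7). Sequence in which no reads can be placed was not left out of these positions. No passage 0 peak was found within 100 kb of 7.21% of the passage-5-only peaks, 1.49% of the shared peaks and 33.2% of the positions. The passage-5-only peaks were thus placed between the shared peaks and the positions along the chromosomes. Read from the other side, 67.4% (60.7% to 73.7%) of the passage 5 peaks with no passage 0 peak nearby were passage 5 only, and 15.8% (13.9% to 17.9%) of those with more than 20 nearby. The rule partly sets this contrast too, since a peak among many passage 0 peaks is more likely to touch 1 of them.

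**Figure D4:**
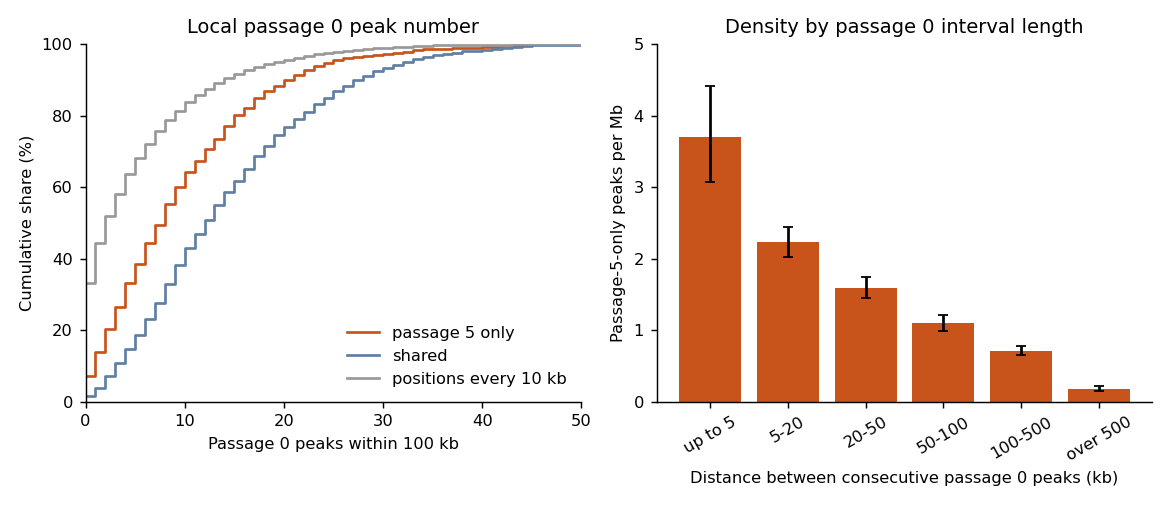
Left, cumulative share (vertical axis, percent) by the number of passage 0 peaks within 100 kb (horizontal axis) for passage-5-only peaks, shared peaks and positions every 10 kb, with medians of 8, 12 and 2. Right, passage-5-only peaks per Mb (vertical axis) in intervals between consecutive passage 0 peaks, grouped by interval length in kb (horizontal axis), with 95% exact Poisson bars; the density goes from 3.70 in the shortest intervals to 0.184 in the longest.

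The density of passage-5-only peaks fell steadily with the length of the passage 0 interval that held them. Intervals of up to 5 kb held 3.70 peaks per Mb of sequence in which a peak of median width could be placed, those of 20 to 50 kb held 1.59, and those over 500 kb held 0.184. Intervals of up to 20 kb together had 5.76 times the density of those over 100 kb (5.12 to 6.47). Sequence in which no reads can be placed was not left out of the intervals either, and how much they hold is not known here. In absolute numbers, 123 of the 2012 peaks lay in intervals of up to 5 kb and 146 in those over 500 kb, and 2 lay outside the first or last passage 0 peak of their chromosome.

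The median distance to the nearest passage 0 peak was 8.06 kb (7.28 to 8.98), with quartiles of 2.51 and 25.2 kb. Within 10 kb of a passage 0 peak lay 54.9% of the passage-5-only peaks, and 19.5% had a passage 0 peak within 10 kb on both sides. Only a small number were near misses of the overlap rule: 33 lay within 100 bases of a passage 0 peak and another 113 within 500. Score, width and enrichment hardly moved with distance. The median score was between 106 and 115 in each of 7 distance classes, the median width between 504 and 547 bases, and the median enrichment between 18.5 and 19.5. The nearest passage 0 peaks had a median score of 123 (119 to 128), slightly below the median of 129 (128 to 130) over all autosomal passage 0 peaks.

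The passage-5-only peaks closest to a passage 0 peak had read numbers like those of the shared peaks with the smallest overlap. The nearest were chr5:137818449-137818952, 4 bases from a passage 0 peak with 9 reads, and chr3:9716041-9716569, 5 bases away with 9 reads. The next, on chromosomes 10, 7 and 12, were 17, 22 and 27 bases away with 10, 10 and 11 reads. Just inside the limit, the shared peak chr5:17062519-17063066 had 1 base in common with a passage 0 peak, and chr6:145394644-145395136 had 2. The other 3 shared peaks with the fewest shared bases, on chromosomes 17, 2 and 4, had 9, 14 and 14, and all 5 rested on 9 reads.

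The 5 highest-scoring passage-5-only peaks held 24 to 29 reads. The highest score, 338, was at chr12:81954371-81955251, which held 29 reads (exact Poisson interval 19.4 to 41.6) in 881 bases, 31.4 times the background. A passage 0 peak of that width needed 36 reads, and the nearest lay 39.2 kb away. At chr1:164821998-164822819 there were 28 reads, 32.5 times the background and 2.66 kb from a passage 0 peak. The distance to a passage 0 peak varied widely among the 5. The peaks chr2:18880432-18881283 with 27 reads and chr11:117215397-117216374 with 28 reads lay 1.26 and 2.27 kb from a passage 0 peak, and the latter had 42 passage 0 peaks within 100 kb and another passage-5-only peak 0.576 kb away. The fifth, chr12:83255450-83256101, held 24 reads in 652 bases and had the highest enrichment of the 5, at 35.1. It lay 14.1 kb from a passage 0 peak.

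The widest passage-5-only peaks were a different set. The widest of all, chr2:135279187-135280348, spanned 1162 bases with 26 reads and ended 521 bases from a passage 0 peak. The next, chr2:107041514-107042643, spanned 1130 bases with 21 reads and lay 126 kb from a passage 0 peak. The other 3, on chromosomes 4, 15 and 12, spanned 1061, 1017 and 982 bases with 23, 19 and 15 reads. All 5 were below the median enrichment of the set except the first, at 21.3, and that on chromosome 4, at 20.7.

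On every autosome the share of passage 5 peaks that were passage 5 only was close to the 30.0% of the whole list. It ran from 25.8% on chromosome 8 (21.4% to 30.6%) to 34.5% on chromosome 6 (29.8% to 39.5%), and all 19 intervals held the autosomal share. Per Mb between the first and last peak, chromosome 3 held the fewest, 0.616, and chromosome 19 the most, 1.29, around an autosomal value of 0.840. Chromosome 19 also had the highest density of passage 0 peaks, at 32.3 per Mb. Median scores by chromosome lay between 105 and 116 and median widths between 509 and 557 bases. The median distance to a passage 0 peak varied more, from 4.70 kb on chromosome 17 to 12.9 kb on chromosome 13.

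Passage-5-only peaks were scattered, and where passage 5 peaks stood close together those of the same kind were neighbours more often. Of the 2012 peaks, 139 lay within 10 kb of another passage-5-only peak (6.91%, 5.84% to 8.11%), as 65 pairs and 3 runs of 3 peaks, and 1873 stood alone. The median distance to another passage-5-only peak was 242 kb. Of the 4688 shared peaks, 1093 (23.3%) lay within 10 kb of another shared peak, at a median distance of 49.9 kb over the set. The shared set is larger, which by itself brings its peaks closer together. To any passage 5 peak the median distance was 61.9 kb for passage-5-only peaks and 33.0 kb for shared peaks. The nearest passage 5 peak was itself passage 5 only for 35.1% of them (33.1% to 37.3%) and for 25.4% of the shared peaks (24.2% to 26.7%), where the list as a whole held 30.0%. Where the nearest passage 5 peak was within 1 kb, the values were 44.6% (29 of 65) and 10.9% (36 of 329). Neighbours share their surroundings, including the local number of passage 0 peaks, and this was not separated from the kind of the neighbour.

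**Figure D5:**
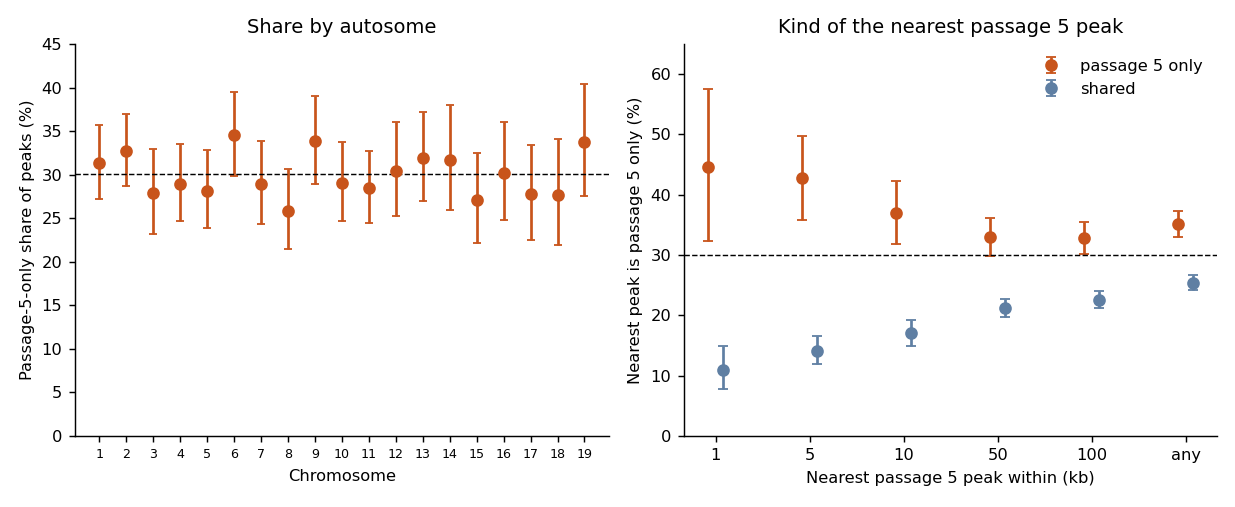
Left, share of passage 5 peaks that were passage 5 only (vertical axis, percent) on each of 19 autosomes (horizontal axis). Right, share of passage-5-only and of shared peaks whose nearest passage 5 peak was passage 5 only (vertical axis, percent), for nearest peaks within 1, 5, 10, 50 or 100 kb or at any distance (horizontal axis). Bars are 95% exact binomial intervals and dashed lines the share in the whole list; all 19 intervals on the left cross the line, and on the right the sets are farthest apart within 1 kb. Passage-5-only peaks were a smaller part of the closely spaced peaks, so the line on the right is not their reference there.

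The runs were small and of unlike kinds. At chr4:29001165-29010550, 3 passage-5-only peaks with 12, 14 and 10 reads lay in 9.39 kb with no passage 0 peak between them, and the nearest passage 0 peak was 34.2 kb away from the closest of them. At chr8:11383181-11387903, 3 peaks with 9, 10 and 12 reads lay in 4.72 kb inside a region dense in passage 0 peaks, of which 1 lay in the span of the run and 42 or 43 lay within 100 kb. The run at chr14:8751749-8767179 also held 3 peaks and 1 passage 0 peak. Of the pairs, the first in chromosome order were chr1:78698276-78702116 and chr1:135837786-135839025, and in the latter the peaks, with 10 and 15 reads, were 153 bases apart.

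At the scale of 1 Mb, passage-5-only peaks occurred in 1158 windows, of which 620 held 1 and 26 held 5 or more. The window with the most, at 167 to 168 Mb of chromosome 2, held 9 passage-5-only peaks among 30 passage 5 peaks and 125 passage 0 peaks, a share of 30% that equals that of the list. The next window, 61 to 62 Mb on chromosome 18, had 7 of 18. Other windows were made up mostly or wholly of passage-5-only peaks: at 97 to 98 Mb of chromosome 7 all 6 passage 5 peaks were passage 5 only beside 19 passage 0 peaks, and at 154 to 155 Mb of chromosome 1 it was 6 of 9 beside 78. At 105 to 106 Mb of chromosome 7 it was 6 of 12. These windows were picked for their counts, and 7 windows had 6.

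Within the 174 long runs of passage 0 peaks, with at least 10 peaks no more than 5 kb apart, 17 of 263 passage 5 peaks (6.46%, 3.81% to 10.1%) were passage 5 only. A low share there is partly set by the rule, since these runs were chosen for being dense in passage 0 peaks. In the last 3 Mb of peaks on each autosome it was 53 of 183 (28.96%, 22.5% to 36.1%), close to the share of the list. In 1 Mb windows without a passage 0 peak, the 16 passage 5 peaks, in 15 windows, were all passage 5 only, as the rule all but fixes.

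More than 50 kb from any passage 0 peak lay 285 of the passage-5-only peaks (14.2%, 12.7% to 15.8%), and 145 lay more than 100 kb away. The number beyond 50 kb depended on the lists, and so did the size of the set, which was 2012 here. It was 465 of 2436 peaks when passage 0 peaks scoring under 100 were left out. In the upper 50% of the passage 5 list by score it was 113 of 849, so the lower number there goes with a smaller set. The 285 peaks had values close to those of the other passage-5-only peaks. The median score was 110 beyond 50 kb and 111 within it, the median widths were 522 and 538 bases, both medians were 10 reads, and the median enrichments were 19.1 and 18.6. Peaks with at most 10 reads were 58.6% and 54.9%. They differed in their surroundings, since the nearest passage 5 peak of any kind was a median of 264 kb away for the distant peaks and 48.1 kb for the others. It was passage 5 only for 49.1% of the distant peaks (43.2% to 55.1%) and for 32.8% (30.6% to 35.1%) of the others. Shared peaks lie at passage 0 peaks, so they are scarce within 50 kb of a distant peak by construction. The distant peaks did not gather among themselves: 265 had no other within 50 kb, and the other 20 formed 10 pairs. They made up 5 of 76 passage-5-only peaks on chromosome 17 (6.58%), the lowest share, and 19 of 83 on chromosome 16 (22.9%), the highest. These are the extremes of the 19 autosomes, rest on small counts and have no interval here.

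The highest-scoring of these distant peaks had 18 to 25 reads. At chr7:13879087-13879979 there were 25 reads in 893 bases, 26.7 times the background, and the nearest passage 0 peak was 258 kb away. At chr13:108118701-108119406 there were 22 reads, 29.7 times the background and 164 kb away. At chr11:17967734-17968457 there were 21 reads, 27.7 times the background and 328 kb away. Sites with a read excess well above the lowest in the list thus lay more than 100 kb from any passage 0 peak. The fourth, chr11:119263826-119264499, held 18 reads and lay 109 kb from a passage 0 peak, and the fifth is the wide peak at chr2:107041514-107042643, which had another passage-5-only peak 6.86 kb away.

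The most remote peaks had 9 reads, a common number in the whole set, with 1 exception. At chr1:112766044-112766601 there were 9 reads, and the nearest passage 0 peak was 4150 kb away. At chr9:5345105-5345617 there were 9 reads, 2227 kb away, and at chr15:48821939-48822322 there were 9 reads, 1066 kb away. These 3 had the smallest number of reads found in the passage-5-only set, which 700 of its 2012 peaks had. Their scores were 91.2, 94.7 and 105. The exception, chr7:84760565-84760962, held 13 reads in 398 bases, 31.0 times the background, 1053 kb from a passage 0 peak. The fifth, chr7:94494049-94494644, again held 9 reads and lay 974 kb away. The nearest passage 5 peak of any kind was 1052 to 4342 kb away from each of the 5.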

How the data were processed

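Build mm9 and the programs MACS 1.4.1, Bowtie 0.12.7 and CASAVA 1.8 are listed in the submitters' processing notes, with no step assigned to any of them. Each of the lists deposited by the authors gives peak positions and 1 unnamed score per peak. How reads were aligned and filtered, and whether an input served as control, is not given in the sources used here. Positions are in mm9, counted from 1. No mm9 sequence or annotation was used here, so the planned gene feature and CpG result was not run.

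The deposited scores were fitted as −10 log10 of a Poisson upper tail with a single background rate per list, which returns a whole read number for each peak. On 2 simulated lists of 6726 peaks the fit recovered 100% of the read numbers. Their scores were made with the same formula, so this checks the inversion and not whether the deposited scores follow that formula. Overlap needed 1 shared base, and the count of peaks without overlap equalled that of bedtools 2.31.1. Distances run from edge to edge and local numbers from midpoint to midpoint. Shares carry 95% exact (Clopper-Pearson) intervals, read numbers exact Poisson intervals and medians intervals from order statistics. All of these cover counting error only and treat peaks as independent. With 1 library per passage no test was made between passages.

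The peaks described, the measures and the alternatives were chosen with earlier results of these data known. The regions named are the 5 highest-scoring, the 5 widest, the 5 farthest from and the 5 nearest to a passage 0 peak, the 5 highest-scoring beyond 50 kb, the 5 shared peaks with the fewest shared bases, and the 5 runs and 5 windows with the most peaks, with ties in chromosome order. The fit to the scores and what rests on it were added after the lists were seen. Alternatives changed the score cut, the overlap rule, the passage 0 list, merging, the chromosomes and the distances. The scripts ran under Python 3.11.15 with scipy 1.17.1, pandas 2.3.3, numpy 2.4.6 and matplotlib 3.10.9.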

Additional observations from a re-analysis of the deposited data

How the results depend on the processing

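Of 91 recomputed values for 13 results, 60 stayed within the counting interval of the reported value (or within 1.5 times a reported count), 31 moved beyond it and 0 changed direction. A change of direction could be recorded only for the differences in score, width, read number and local passage 0 peaks. Some values could not move, such as the read difference with 1 read more and the number beyond 50 kb under the 500 base rule. Keeping passage 5 scores of at least 100 gave a passage-5-only share of 28.2%, differences to the shared peaks of -11.65 in median score and -57 bases in median width, a share of 32.8% with a passage-5-only nearest neighbour and of 5.39% within 10 kb of another, and enrichment ratios of 0.217 for shared peaks and 0.184 at the limit. In the upper 50% by score these were 25.3%, -12.66, -90 bases, 28.4% and 3.06%, with 113 peaks beyond 50 kb, since fewer peaks entered. Counting passage 0 peaks within 500 bases as shared gave a share of 27.9%, a median distance of 9.48 kb, 5.79% within 10 kb of another and a density ratio of 4.60 between short and long intervals, against 5.76. Asking for 50% of the shorter peak gave a share of 31.2%. With passage 0 scores of at least 100 alone, the share was 36.4%, the difference in passage 0 peaks within 100 kb -3 (reported as -4), the median distance 11.04 kb, the share with a passage-5-only neighbour 41.3% and the number beyond 50 kb 465, since fewer passage 0 peaks were left. Merging peaks within 1 kb gave -3 passage 0 peaks and 5.26% within 10 kb of another. Adding the X widened the range over chromosomes from 8.73 to 22.0 percentage points. A radius of 500 kb gave -13 passage 0 peaks, 50 kb in place of 10 kb gave 18.5% near another, and 100 kb in place of 50 kb gave 145 distant peaks. With 1 read more per peak the ratios were 0.215 and 0.186. Other causes of these shifts were not tested. All of the 2012 peaks stayed in the set under the 50% rule, the stricter passage 0 list and the added X, and 1866 did under the 500 base rule. Leaving out the first 200 kb of peaks on each chromosome kept 1997. Scores of merged peaks were not compared. The alternatives for the recovered reads were chosen after seeing the data. No paired analysis was possible because each passage had 1 library, and none could be left out.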

Other observations

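The X chromosome, which was left out of the set, held 11 passage 5 peaks without a passage 0 peak among 23 (47.8%, 26.8% to 69.4%), and 10 of the 11 lay more than 50 kb from any passage 0 peak. No explanation was tested for this.

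The fewest reads in the passage 5 list were not found among the passage-5-only peaks, whose lowest score was 86.7. The 9 autosomal peaks with 8 reads all had a score of 81.5, all were exactly 519 bases wide, and all 9 overlapped a passage 0 peak. Of all autosomal passage 5 peaks, 21 had that width. These peaks were singled out after their values were seen.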
